A study of Homo sapiens with 6 samples.

Results

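Chromosome 18 was the autosome with the fewest 6mA peaks per Mb, and the data described here are all peaks that the deposited lists place on it. The chromosome was chosen on its peak density, so every comparison of its density with other chromosomes is a description without a test. It held 972 of the 143552 peaks of the 4 lists, namely 205 and 227 in control replicates 1 and 2 against 254 and 286 in the si-N6AMT1 replicates. The lists come from 6mA-IP-seq: genomic DNA is sheared and denatured, fragments are pulled down with an antibody against N6-methyladenine, and the bound fragments are sequenced. All cells were of the human breast cancer cell line MDA-MB-453, which is an established line, and all were transfected with Lipofectamine RNAiMAX. Control cells received scramble siRNA, and si-N6AMT1 cells received an siRNA against N6AMT1, each at 10 nM for 48 h. The labels call the 2 immunoprecipitated libraries of a group biological replicates. The knockdown was transient and in 1 cell line, and peak lists hold no measure of the N6AMT1 transcript, so its level could not be checked here.

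N6-methyladenine (6mA) is adenine with a methyl group on its amino nitrogen. It is a common mark in bacterial DNA, while its abundance in human DNA is low and debated. N6AMT1 has been described as its methyltransferase and ALKBH1 as its demethylase, and the study asked what lowering N6AMT1 does to the mark in breast cancer cells. Chromosome 18 is poor in genes. It carries SMAD2 and SMAD4, which transmit TGF-beta signals, the cell death inhibitor BCL2, the netrin receptor DCC and the cluster of desmosomal cadherins.

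The sequences under the strongest regions of the chromosome show what was pulled down. Peaks of the 4 lists that overlapped were merged into regions. The regions shown are the 3 of highest rank among those called in all 4 libraries, the 1 of highest rank among those called only in both control libraries and the 1 of highest rank among those called only in both si-N6AMT1 libraries. Regions were ranked on their −log10 q, as a percentile of its list, in whichever calling library gave the lowest. Each sequence is 200 bp of hg19, plus strand, centred on the summit, and capitals mark runs of 8 letters that were searched for on both strands, namely AAAAAAAA, CACACACA, GAGAGAGA, GGAAGGAA and CAGGCTGG.
All 4 libraries, near VAPA, chr18:10008129-10008328: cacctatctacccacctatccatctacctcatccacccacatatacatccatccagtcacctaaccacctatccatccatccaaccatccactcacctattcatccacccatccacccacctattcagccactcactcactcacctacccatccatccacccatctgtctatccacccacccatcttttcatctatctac
All 4 libraries, RAB31, chr18:9824258-9824457: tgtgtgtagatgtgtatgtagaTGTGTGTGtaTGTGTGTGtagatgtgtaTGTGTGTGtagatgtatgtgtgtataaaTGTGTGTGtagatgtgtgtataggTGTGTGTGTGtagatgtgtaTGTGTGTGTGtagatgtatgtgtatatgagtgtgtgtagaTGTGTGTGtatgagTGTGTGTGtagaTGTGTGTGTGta
All 4 libraries, BCL2, chr18:60865522-60865721: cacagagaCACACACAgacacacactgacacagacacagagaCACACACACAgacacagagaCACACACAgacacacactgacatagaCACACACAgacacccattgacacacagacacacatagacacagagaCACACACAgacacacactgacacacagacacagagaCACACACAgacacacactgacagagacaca
Only control, near PTPRM, chr18:7497162-7497361: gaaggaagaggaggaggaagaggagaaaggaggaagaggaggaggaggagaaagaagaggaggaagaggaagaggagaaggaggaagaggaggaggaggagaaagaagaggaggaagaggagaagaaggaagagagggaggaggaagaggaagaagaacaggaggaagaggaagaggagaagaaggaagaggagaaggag
Only si-N6AMT1, near SS18, chr18:23569518-23569717: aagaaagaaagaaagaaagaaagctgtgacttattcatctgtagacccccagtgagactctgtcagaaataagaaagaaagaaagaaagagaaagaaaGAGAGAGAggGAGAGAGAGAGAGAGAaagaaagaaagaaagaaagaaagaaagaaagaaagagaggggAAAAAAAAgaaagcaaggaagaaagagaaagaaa
Simple sequence repeats made up most of these windows. The window near VAPA held the letters ATCC 13 times and CCAC 12 times. The RAB31 and BCL2 windows were runs of the CA dinucleotide, written TG on the plus strand in RAB31. The window near PTPRM was 99.5% purine and had no T, with an unbroken purine stretch of 158 bp. The window near SS18 held an unbroken purine stretch of 109 bp.

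The strongest region was intergenic, at chr18:10007899-10008627, 48211 bp from VAPA, which encodes a membrane protein of the endoplasmic reticulum. Its fold enrichment, the fragment pileup at the summit over the local background with 1 added to each, was 19.2 and 13.3 in control against 15.3 and 14.3 in si-N6AMT1. The groups overlapped, and the pileup was 48 and 39 fragments in control against 40 and 38. An intronic region of RAB31, a small GTPase of vesicle transport, lay at chr18:9824002-9824654 with folds of 12.5, 10.6, 13.2 and 13.5 in the same order of libraries, higher in both si-N6AMT1 libraries than in either control library. The intronic BCL2 region at chr18:60865297-60867205 had folds of 12.7, 11.8, 11.2 and 14.6, and the groups overlapped. The region called only in control, at chr18:7497050-7497558, 69518 bp from PTPRM, had folds of 9.76 and 8.46. The region called only in si-N6AMT1, at chr18:23569378-23569843, 26599 bp from SS18, had folds of 11.2 and 9.50. Both rested on pileups of 19 to 26 fragments, and a library without a call is not a library without signal.

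Chromosome 18 held 2.75 and 3.04 peaks per Mb of assembled sequence in control against 3.40 and 3.83 in si-N6AMT1. The other autosomes together held 11.2, 12.3, 14.3 and 15.01, so that the density of chromosome 18 was 0.245, 0.247, 0.238 and 0.255 of theirs. The ratio varied little among libraries although the lists differed in length. The number of copies of chromosome 18 in these cells was not measured here, and neither densities per Mb nor backgrounds are corrected for it. The next sparsest autosome was chromosome 4, with a mean of 7.17 peaks per Mb. Chromosomes 17 and 16, the nearest in length, held means of 14.6 and 9.83, and chromosome 20, the densest autosome, held 18.2. The GC content of chromosome 18 was 39.8%, the 6th lowest of the 22 autosomes, and across these 22 the density had a Spearman correlation with GC content of only 0.0254 to 0.155. Peaks covered 109 to 149 kb of the chromosome, or 0.146% to 0.199%, against 0.610% to 0.804% of the other autosomes.

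The background under the peaks separated the chromosome from most others as well. The fold and −log10 p of a peak together give its pileup and its local background, and the genome-wide level is the lowest background found in a list. It was 1.05, 1.36, 1.41 and 1.53 fragments. On chromosome 18, 72.7% and 75.3% of summits in control against 75.6% and 79.02% in si-N6AMT1 stood at that lowest level. On the other autosomes it was 25.1% to 26.6% of summits. Chromosome 19 came closest, with a mean of 70.5% over the 4 libraries and a density of 13.6 peaks per Mb. In control replicate 1 its share, 75.2%, was above that of chromosome 18. Across the 22 autosomes the density and the share of summits at the lowest background had Pearson correlations of -0.823 to -0.884 and Spearman correlations of -0.846 to -0.896 in the 4 libraries. The chromosomes of a library share its depth and its background level, and what sets the local background was not tested.

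**Figure D1:**
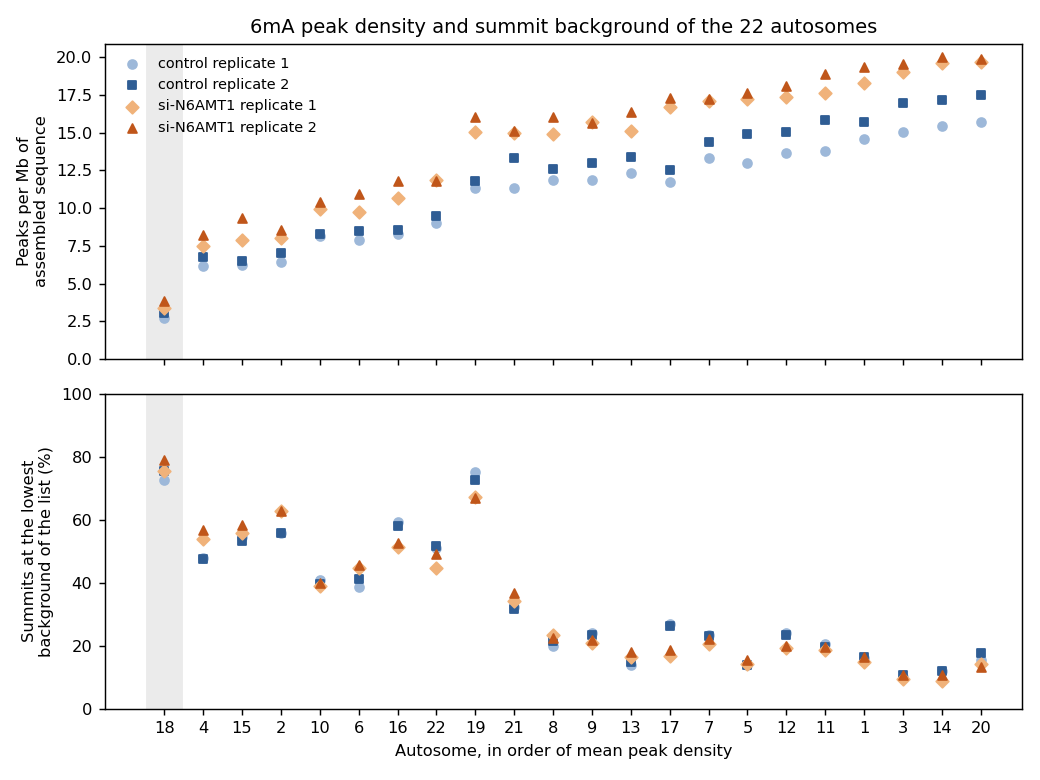
Peaks per Mb of assembled sequence (top) and percent of summits at the lowest background of the list (bottom) for the 22 autosomes in order of mean density, with a point per library. Chromosome 18, shaded, lies at 2.75 to 3.83 peaks per Mb, and 72.7% to 79.02% of its summits are at the lowest background.

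Along the chromosome the peaks were unevenly spread. The short arm held 79, 88, 103 and 117 peaks in control replicates 1 and 2 and si-N6AMT1 replicates 1 and 2, or 5.13 to 7.60 per Mb. The long arm held 126, 139, 151 and 169, or 2.13 to 2.85 per Mb, although it has 59.3 of the 74.7 assembled Mb. Per Mb the long arm was thus at 0.415, 0.411, 0.381 and 0.375 of the short arm. In 5-Mb windows counted from the short-arm end, the 3 highest mean densities were 8.22, 7.40 and 7.37 peaks per Mb in windows 1, 2 and 4. Window 4 holds the centromere gap and has 1.9 assembled Mb. The 3 lowest were 1.39, 1.75 and 1.80 in windows 11, 10 and 9, in the middle of the long arm. All 16 windows lay below the median of the 523 other autosomal windows, 12.9 peaks per Mb, and 12 of 16 lay below 5.75, the bound of the lowest 10% of those windows. Over the 15 windows of at least 2.5 assembled Mb, density and GC content had a Pearson correlation of 0.377 and a Spearman correlation of 0.190.

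**Figure D2:**
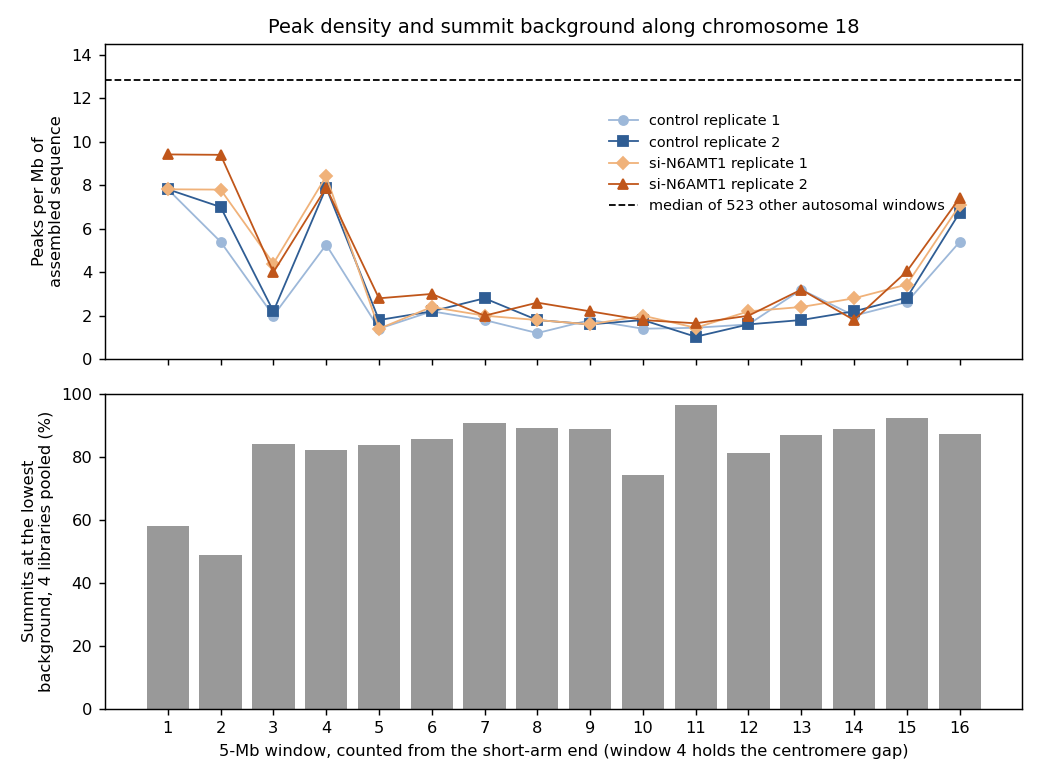
Peaks per Mb in the 16 windows of 5 Mb along chromosome 18 (top, a line per library, dashed line at 12.9 for the other autosomal windows) and the percent of pooled summits at the lowest background (bottom). Windows 1 and 2 have the highest densities, 8.22 and 7.40, and the lowest shares at the lowest background, 57.9% and 48.6%.

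From these windows the chromosome was divided into 4 segments, chosen after the values were seen. The first 10 Mb held 66, 74, 78 and 94 peaks, which was 30.7% to 32.9% of the chromosome's peaks and 0.546 to 0.627 of the density of the other autosomes. Only 50% to 55.1% of its summits were at the lowest background. The long arm up to 75 Mb held 110, 119, 130 and 147 peaks, at 0.162 to 0.174 of the density of the other autosomes, with 82.7% to 92.5% of summits at the lowest background. The long arm up to 75 Mb was thus far sparser than the first 10 Mb. The last 3 Mb, next to the long-arm telomere, held 16, 20, 21 and 22 peaks, at 0.480 to 0.549 of the density of the other autosomes. Between 10 Mb and the centromere gap there were 13, 14, 25 and 23 peaks, at 0.211 to 0.323 of the density of the other autosomes. There 82.6% to 92.9% of summits were at the lowest background. In density this rest of the short arm was nearer to the long arm up to 75 Mb than to the first 10 Mb.

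Peak counts fell from the 10th to the 12th Mb. The 10th Mb held 9, 11, 14 and 17 peaks, which over the 4 libraries together was the most of any single Mb, and of these 51 peaks only 4 stood at the lowest background. Their median background was 1.29, 1.59, 1.82 and 1.81 fragments, between 1.17 and 1.28 times the lowest level of the list. This was close to the median of peaks on the other autosomes, 1.29, 1.70, 1.70 and 1.81 fragments. The 9th Mb held 25 peaks over the 4 libraries, the 11th held 21, as did the 5th and the 7th, and the 12th held 7. The region in RAB31 lies in the 10th Mb and the region near VAPA in the 11th. Beyond the first 10 Mb, the 20th Mb, which holds part of GREB1L, held the most, with 36 peaks. The 75th and 77th Mb held 29 each, and the 47th and 78th held 27 each. Of 5 regions called in all 4 libraries in the 47th Mb, 2 lay in introns of CTIF, which encodes a translation factor, 2 in introns of DYM, which encodes a Golgi protein, and 1 between genes.

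Peaks of chromosome 18 rested on fewer fragments than peaks elsewhere. The median pileup at the summit was 14, 16, 17 and 16 fragments, against 17, 18, 19 and 19 on the other autosomes. The median fold enrichment was 7.32, 7.19, 7.04 and 6.62, against 7.41, 6.92, 6.92 and 6.64, so the folds of chromosome 18 were lower in 2 libraries and higher in the other two. Median −log10 p was 12.2, 12.8, 12.6 and 12.0, against 13.4, 13.4, 13.5 and 13.1. Among summits at the lowest background alone, the median fold was 7.32, 7.19, 7.04 and 6.73 on chromosome 18 and 8.30, 7.62, 7.46 and 7.12 on the other autosomes. At the lowest background the median was thus lower on chromosome 18 in every library. Among summits above it, the median fold was 7.29, 7.15, 7.05 and 6.50 on chromosome 18 against 7.22, 6.73, 6.75 and 6.51, so it was higher on chromosome 18 in 3 libraries and about equal in si-N6AMT1 replicate 2. Median widths were 424 to 436 bp, against 443 to 449 bp.

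Regions of chromosome 18 were also shared by fewer libraries. Merging gave 534 regions, of which 294, or 55.1%, were called in 1 library, against 49.6% of the 72532 nuclear regions. Regions called in all 4 libraries numbered 65, or 12.2%, against 16.7% of nuclear regions. Replicates shared 46.7% and 51.7% of their chromosome 18 peaks within control and 45.1% and 50% within si-N6AMT1, while on the other autosomes it was 53.6% to 58.6%. Across the groups the shares were 40.9% to 58.0%, which spans those within groups. Sharing varied along the chromosome. In the last 3 Mb 11 of 29 regions were called in all 4 libraries, which was 37.9%, in the first 10 Mb 15 of 177 and in the long arm up to 75 Mb 31 of 289. Peaks of shared regions were the stronger, with a median pileup of 18 to 21 fragments in regions called in all 4 libraries and 13 to 15 in those called in 1.

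Of the 65 regions called in all 4 libraries, 30 had their strongest summit between genes, 29 in an intron, 5 in a promoter and 1 in an exon. The following of them were picked for description after their values were seen. MYOM1, which encodes a protein of the muscle sarcomere, held 2, at chr18:3159761-3160287 and chr18:3186544-3187173, and the folds of the latter were 11.5 and 10.3 in control against 12.0121 and 9.96 in si-N6AMT1. An intronic region of PIEZO2, a mechanically gated ion channel, at chr18:10755711-10757685, was 1975 bp wide with folds of 11.2, 11.002, 11.6 and 9.60 in the same order. Replicates were far apart in an intron of the centrosome gene CEP192, at chr18:13105970-13106836, with 19.04 and 7.62 in control against 13.7 and 7.91 in si-N6AMT1. There the replicates of a group were further apart than the groups. Next to the centromere gap 3 regions lay within a short stretch, at chr18:15164382-15164933, chr18:15193115-15194799 and chr18:15207897-15208595, with folds of 6.35 to 9.10, and each of their 12 strongest summits stood at the lowest background.

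**Figure D3:**
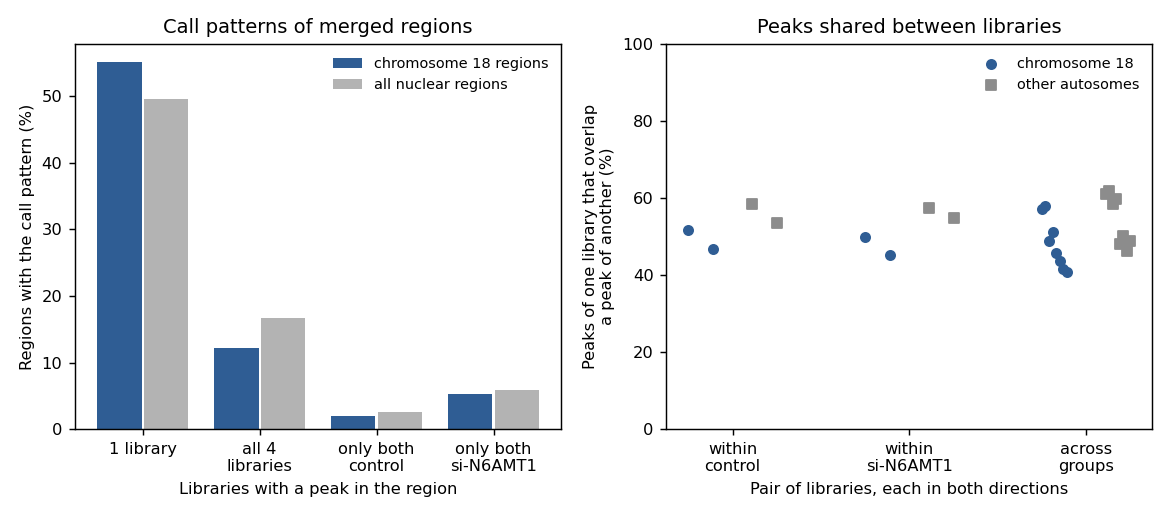
Percent of merged regions by call pattern on chromosome 18 and over all nuclear regions (left) and percent of the peaks of a library that overlap a peak of another library, a point for each ordered pair (right). On chromosome 18 55.1% of regions have a call in 1 library and 12.2% in all 4, against 49.6% and 16.7% of nuclear regions.

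Lowering N6AMT1 was compared with control through the values of the libraries, with an exact two-sided permutation test whose smallest p with 2 libraries a group is 0.333, so no difference could reach 0.05. Chromosome 18 had 216 ± 15.6 peaks in control and 270 ± 22.6 in si-N6AMT1 (SD, n = 2, p = 0.333, exact permutation test), and every si-N6AMT1 library lay above every control library. The other autosomes rose as well, by 24.6% against 25% for chromosome 18. Its share of nuclear peaks was 0.676 ± 0.00440% in control and 0.677 ± 0.0328% in si-N6AMT1 (SD, n = 2, p = 1, exact permutation test), with the 2 si-N6AMT1 libraries, at 0.654% and 0.7003%, on either side of both controls. Relative depth was taken as the lowest background divided by the width of the shortest nuclear peak of the list. It was 1 and 1.32 in control against 1.38 and 1.5 in si-N6AMT1. Peaks per unit of this depth were 188 ± 23.6 and 187 ± 5.12 (SD, n = 2, p = 1, exact permutation test). When every library kept as many nuclear peaks as the shortest list, both groups had a mean of 205 chromosome 18 peaks.

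The median fold of chromosome 18 peaks was 7.26 ± 0.0916 in control and 6.83 ± 0.298 in si-N6AMT1 (SD, n = 2, p = 0.333, exact permutation test). With equal numbers of peaks the difference turned to 0.233 higher in si-N6AMT1. In the 65 regions called in all 4 libraries the median fold was 9.01, 8.04, 8.28 and 8.43, and the groups overlapped. The median log2 ratio of si-N6AMT1 to control fold was -0.06 in these regions and -0.05 in the 11760 such regions of the other autosomes. Both si-N6AMT1 folds were below both control folds in 13 of the 65, against 24.3% of all nuclear regions called in the 4 libraries, and above them in 10, against 16.9%. By pileup, both si-N6AMT1 libraries were above both control libraries in 18 of the 65 and below them in 6. On the other autosomes the pileups were so in 30.2% and 5.71% of such regions. These pileups were not divided by depth.

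Regions called only in both control libraries numbered 11 on chromosome 18, or 2.06% of its regions, against 2.63% of nuclear regions. Regions called only in both si-N6AMT1 libraries numbered 28, or 5.24%, against 5.86%. Each share lay near its genome-wide background. With a library of the same group left out, a call in the remaining library was enough, and the counts were 55 and 80 for control and 106 and 131 for si-N6AMT1. With a library of the other group left out, only 1 library had to lack the call, and they were 25 and 27 for control and 42 and 48 for si-N6AMT1. By segment, peaks rose in the means of all 4, from 70 to 86 in the first 10 Mb, from 114.5 to 138.5 in the long arm up to 75 Mb and from 18 to 21.5 in the last 3 Mb. Between 10 Mb and the centromere gap the mean was 13.5 ± 0.707 in control and 24 ± 1.41 in si-N6AMT1 (SD, n = 2, p = 0.333, exact permutation test), a ratio of 1.78. Of the 39 regions in that segment 4 were called only in si-N6AMT1 and 0 only in control. The segment was singled out after the values were seen, and its counts are 13 to 25 peaks.

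Fewer of the protein-coding genes had a peak than on the other autosomes, and genes of the first 10 Mb had the most regions for their length. Of 266 protein-coding genes of the chromosome, 58 and 66 had a peak in control against 65 and 71 in si-N6AMT1, or 21.8% to 26.7%, against 29.9% to 35.0% on the other autosomes. A peak in any library was found in 102 genes and in every library in 31. Of the 39 genes that start in the first 10 Mb, 23 overlapped a region, at 1.79 regions per 100 kb of gene. Of the 188 genes of the long arm up to 75 Mb, 64 did, at 0.551 regions per 100 kb. The 5 protein-coding genes with the most regions were DLGAP1 with 18, PTPRM with 14, GREB1L with 9, SMCHD1 with 8 and ANKRD12 with 6.

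DLGAP1, a scaffold protein of the postsynaptic density, spans 959 kb of the short arm and had 9 and 6 peaks in control against 7 and 6 in si-N6AMT1. A single library called 12 of its 18 regions, and all 4 libraries called 2. PTPRM, a receptor tyrosine phosphatase of cell contacts, had 2 and 8 peaks in control against 6 and 6 in si-N6AMT1, so the spread was within control. GREB1L, a paralogue of the oestrogen-responsive gene GREB1 that lies next to the centromere, had 1 and 4 peaks in control against 7 and 4 in si-N6AMT1. With 3.17 regions per 100 kb it was the densest of the long genes, but none of its regions was called in all 4 libraries. SMCHD1, a chromatin protein of X inactivation, had 4, 4, 3 and 3 peaks spread over 8 regions, of which none was called in all 4. ANKRD12 had 4, 3, 3 and 7 peaks, and 2 of its 6 regions were called in all 4 libraries. None of the regions of SMCHD1 was called only in control, although its peak counts were 4 and 4 against 3 and 3. How often the groups separate over all genes of the chromosome was not counted.

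**Figure D4:**
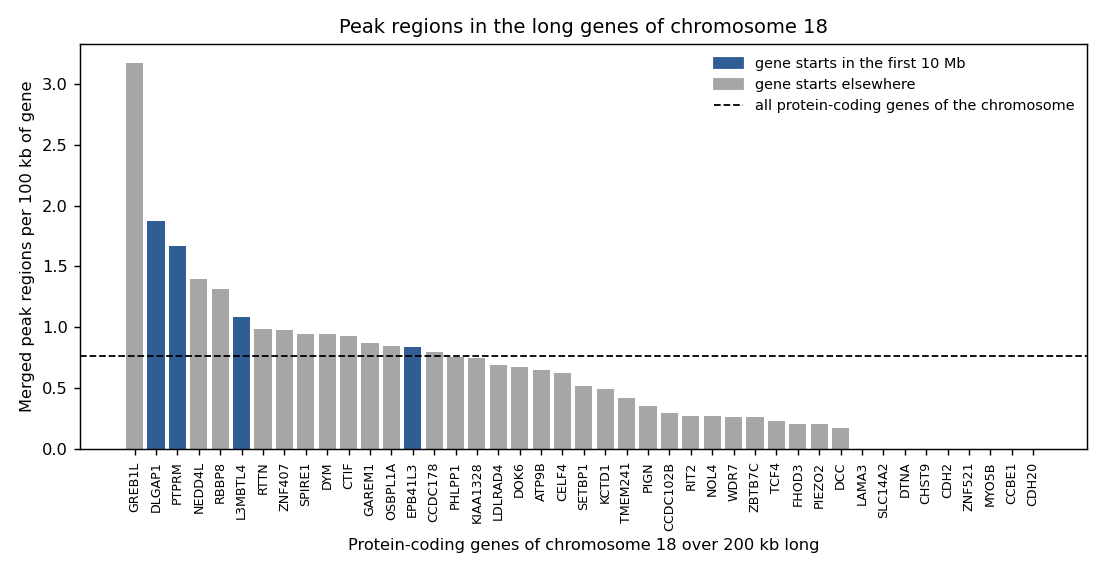
Merged peak regions per 100 kb in the 43 protein-coding genes of chromosome 18 that are at least 200 kb long, with the 4 that start in the first 10 Mb in blue and the value over all protein-coding genes, 0.761, dashed. GREB1L has 3.17 regions per 100 kb, DCC has 0.167 and 9 genes have none.

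Some of the longest genes had few or no peaks. DCC, the netrin receptor, is the longest of the listed genes at 1196 kb, and its only 2 peaks were both in the list of si-N6AMT1 replicate 1. Of the 43 genes of at least 200 kb, 34 overlapped a region and 9 did not. The 9 include CDH2, LAMA3, ZNF521, MYO5B and CDH20. The median was 1.38 regions per 100 kb in the 4 that start in the first 10 Mb and 0.415 in the other 39. Among 6 long neuronal genes, 5 had a region, with 37 regions in all, of which DLGAP1 and PTPRM held most. The RNA-binding protein gene CELF4 had 1, 2, 2 and 1 peaks, NOL4 had 1 peak in control replicate 2, and NETO1, an accessory subunit of glutamate receptors, had none.

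The counts of the other lists stand beside the 38.3% of all protein-coding genes of the chromosome that had a region. In TGF-beta signalling 1 of 5 genes had a region, a single peak in SMAD4, the common partner of receptor SMADs, in control replicate 2. SMAD2, the inhibitory SMAD7, and the corepressors SKOR2 and TGIF1 had none in any library. Of 7 desmosomal cadherins, which hold epithelial cells together, 2 had a region. DSC1 had a peak in both si-N6AMT1 libraries and in neither control library, and DSG1 had one in 3 libraries, all but control replicate 2. Among 4 other cadherins CDH19 had 2 regions, called in control replicate 1 and si-N6AMT1 replicate 2, and CDH7 had 1, while CDH2, which encodes N-cadherin, and CDH20 had none. Among 10 clade B serpins, protease inhibitors in a cluster, SERPINB11 had 2 regions and SERPINB7 and SERPINB10 had 1 each. Each of these serpin regions was called in at most 2 libraries. LAMA1, a laminin chain of basement membranes, had a peak in control replicate 2 and in si-N6AMT1 replicate 2, and LAMA3 had none.

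Regions called in every library lay in BCL2 and in NFATC1 among the listed growth genes and transcription factors. NFATC1, a calcium-dependent transcription factor near the long-arm telomere, had 2 peaks in each of the 4 libraries. Its intronic region at chr18:77168707-77169749 had folds of 11.7 and 7.62 in control against 6.21 and 9.10 in si-N6AMT1. Its other region, at chr18:77184468-77185346, had 8.30, 7.62, 9.94 and 11.9, so the groups overlapped in the former and separated in the latter. RBBP8, a DNA end resection factor, had 2, 0, 2 and 1 peaks. SETBP1 had 1, 1, 0 and 1, with 1 region called only in control, and TCF4 had 1, 0, 0 and 1. No peak was called in TYMS, YES1, MALT1, PMAIP1, GATA6, ZNF521, ONECUT2, TSHZ1 or SALL3. Over the 48 listed genes 19 had a region, or 39.6%, beside 38.3% of all protein-coding genes of the chromosome.

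Most summits lay in introns or between genes, as most of the sequence does. Intergenic summits made up 39.6 ± 0.0957% in control and 42.0 ± 0.119% in si-N6AMT1 (SD, n = 2, p = 0.333, exact permutation test), and 44.5% of the sequence of the chromosome is intergenic. Intronic summits made up 56.7 ± 0.828% and 53.5 ± 0.493% (SD, n = 2, p = 0.333, exact permutation test), with introns at 50.4% of the sequence. The groups did not overlap in either, but 39.5% of the 205 summits of control replicate 1 has a 95% Wilson interval of 33.1% to 46.3%, which spans all 4 libraries. Exons held 2 to 5 summits per library and promoters, within 1000 bp of a transcription start site, 5 to 10. Promoter summits were 2.56% in control and 3.13% in si-N6AMT1, with promoters at 2.60% of the sequence. On the other autosomes a mean of 2.26% of summits and 3.27% of the sequence lay in promoters. Of 14 regions with their strongest summit in a promoter, 5 were called in all 4 libraries, and these are named after their values were seen. The region at a start site of MBP, the myelin basic protein gene, at chr18:74730008-74730979, had folds of 7.32 and 5.92 in control against 5.80 and 5.14 in si-N6AMT1. The others lay at noncoding RNA starts, of which 1 is in DLGAP1 and 1 is in the kinase gene ALPK2.

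The repeats seen in the strongest regions were common under the summits of the chromosome as a whole. The run CACACACA or its reverse complement was found in 20%, 16.7%, 18.1% and 14.7% of 100-bp windows centred on chromosome 18 summits. It was found in 1.63% of windows of the same length taken every 1000 bp along the chromosome, and in 9.02% to 12.0% of summit windows of the other autosomes. In all 4 libraries, then, CA repeats were the more frequent on chromosome 18. AAAAAAAA was the less frequent there, at 15.1%, 21.1%, 16.1% and 21.3% against 23.5% to 27.6%, beside 5.48% of windows along chromosome 18. GAGAGAGA was in 11.0% to 13.7% of summit windows and GGAAGGAA in 10.7% to 13.0%, against 1.21% and 0.901% along the chromosome. On the other autosomes they were in 10.1% to 11.8% and 8.80% to 10.1% of summit windows, lower in every library. In 200-bp windows this held for GGAAGGAA, but for GAGAGAGA only in si-N6AMT1 replicate 1. A window may hold more than 1 of these runs. The groups overlapped for each of the 4 repeats (p = 0.667 to 1, exact permutation test with n = 2 a group).

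CAGGCTGG, the motif that the study named, was less frequent in 100-bp windows on these summits than beside them, but not in every library in wider windows. It or its reverse complement was in 1.46%, 1.32%, 2.76% and 2.10% of summit windows, against 3.74% to 5.77% of windows 1000 bp to either side and 3.36% along the chromosome. In 200-bp windows the summits held it in 5.37%, 7.05%, 7.48% and 6.29% and the windows beside them in 6.59%, 9.25%, 6.89% and 8.04%, with 6.66% along the chromosome, so the direction was lost in si-N6AMT1 replicate 1. In 100-bp windows, 1.39 ± 0.100% of summits in control and 2.43 ± 0.465% in si-N6AMT1 held it (SD, n = 2, p = 0.333, exact permutation test). These shares rest on few summits. On the other autosomes the means were 2.73% and 3.97%, so a higher share in si-N6AMT1 was not particular to chromosome 18. No library pulled down with a non-specific antibody was used here, so binding of the antibody to 6mA and to the repeats themselves cannot be told apart.

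**Figure D5:**
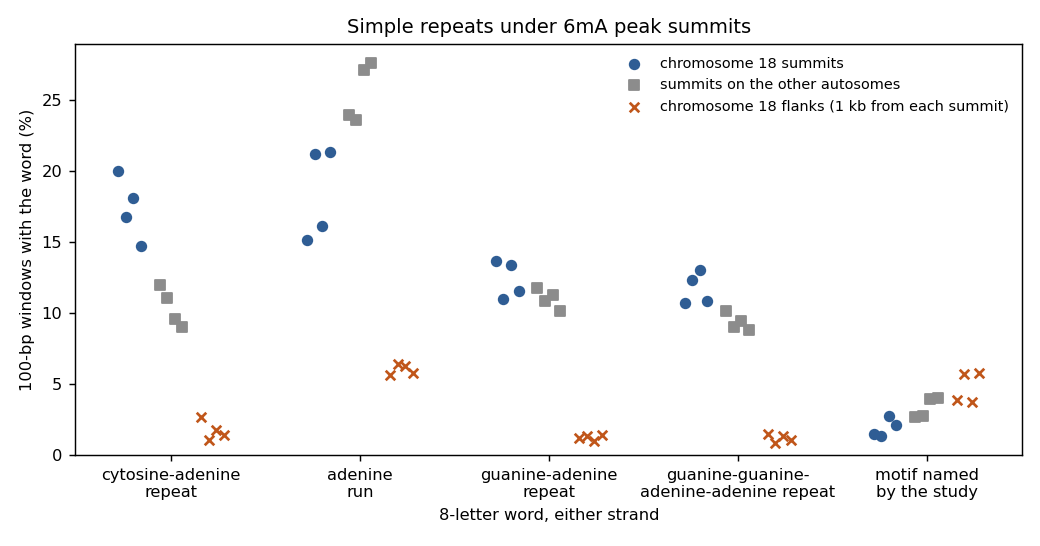
Percent of 100-bp windows with each 8-letter word on either strand, for summits of chromosome 18, summits of the other autosomes and windows 1000 bp to either side of chromosome 18 summits, a point per library. The cytosine-adenine repeat is at 14.7% to 20% on chromosome 18 and at 9.02% to 12.0% on the other autosomes.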

How the data were processed

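6mA-IP-seq peak lists of 4 immunoprecipitated libraries were used. According to the study's methods, the authors used Trimmomatic to filter the reads, Bowtie2 2.3.5 for alignment to hg19 and SAMtools 1.9 to drop duplicates. Peaks were called by library, with MACS version 2 and a p-value under 1e-05. Which input served in each call is not given in the sources used here, and input libraries were not analysed here. The deposited lists give a fold ratio, −log10 p and −log10 q for each summit and a score, which was not used. The fold in the deposited lists has a pseudocount of 1, so it understates the plain ratio where the background is low.

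Pileup and background were recovered from fold and p, and the pileup was whole within 0.02 for 100% of peaks. On simulated peaks 100% of 4682 pileups were recovered, and all call patterns of 800 planted regions. The lowest background is the level within 0.1% of the lowest in a list. Depth, the lowest background over the width of the shortest nuclear peak, was set relative to control replicate 1. Peaks rest on few fragments, so a call near the threshold may be lost to sampling of fragments, and intervals cover counting error only.

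Peaks sharing 1 bp were merged into regions. The GRCh37 primary assembly stood for hg19, with 0 peaks past a chromosome end, and the gene annotation was GENCODE v44, lifted to GRCh37. Elements were taken from basic transcripts in the order promoter, exon, intron and intergenic. Named genes were 8 lists by role and the 5 protein-coding genes with the most regions; named regions are described beside their sequences, and 2 regions that the rule also names are not reported here. The chromosome, lists and settings were chosen with earlier results of these data known, and the segments and the measure of lowest background after the values were seen. Groups came from the sample titles and were compared by an exact two-sided permutation test over 6 assignments. The alternatives tried were lists of equal length, only peaks with −log10 q of 5 or more, other overlaps, denominators, windows and gene flanks, each library left out, and a replicate block. Python 3.11.15, numpy 2.4.6, pandas 2.3.3, scipy 1.17.1, pysam 0.24.0, samtools 1.23.1 and matplotlib 3.10.9 were used.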

Additional observations from a re-analysis of the deposited data

How the results depend on the processing

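Under the alternatives tried, the density of chromosome 18 relative to the other autosomes and of its long arm relative to its short arm kept their direction, and the excess of chromosome 18 peaks in si-N6AMT1 was not reversed. The difference in the share of nuclear peaks, 0.000690 percentage points, changed sign to -0.00536 with a −log10 q of at least 5, was 0 with equal numbers of peaks and ranged from -0.0225 to 0.0239 when each library was left out in turn. For lists of equal length, the difference in chromosome 18 peaks was 0 and that in median fold became 0.233. Leaving out a library gave 25 to 80 regions called only in control and 42 to 131 called only in si-N6AMT1, since a call in only 1 library of a group, or the lack of a call in only 1 library of the other group, was then required. In windows of 2 Mb the lowest and highest densities were 0.5 and 9.63 peaks per Mb. In 200-bp windows 20.0025% of summits held CA repeats, 25.4% runs of A, 16.4% GA repeats, 16.4% GGAA repeats and 6.55% CAGGCTGG. No pairing by replicate number was seen in the calls: deviations of same-numbered libraries had a correlation of 0.00530 over 72532 regions. Such a value cannot show whether the libraries were prepared in pairs. With the replicate number as a block, an exact sign-flip test gave p = 0.5 for peaks, 1 for the share and 0.5 for the fold, where 0.5 is the smallest that 2 pairs allow. With 2 libraries a group and median pileups of 14 to 17 fragments, single calls are weakly determined.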
